A study of Mus musculus with 4 samples.

Results

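The 9 genes described here are skeletal genes that were looked up by symbol among the 25819 rows of the expression table, and all 9 were found. *Acan*, *Hapln1*, *Matn1*, *Matn3* and *Comp* encode cartilage matrix proteins, and *Runx2*, *Sp7*, *Alpl* and *Ibsp* encode regulators and products of bone-forming cells. They were measured by RNA-Seq in the urogenital sinus (UGS) of male mouse embryos, the tissue from which the prostate develops. The 4 groups were sequenced as 1 library each: wild type at embryonic day E16.5, *Tbx18Gfp/Gfp* at E16.5, wild type at E18.5 and *Tbx18Gfp/Gfp* at E18.5. RNA of 3 embryos was pooled per library and the whole UGS was used. In *Tbx18Gfp/Gfp* embryos a GFP reporter sits in both copies of *Tbx18*, a T-box transcription factor gene of mesenchyme, as a germline change in every cell. With 1 pooled library per group there is no replicate and no spread between embryos, and no test was made, so every difference below compares libraries.

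Chondrocytes build cartilage from a collagen network filled with the proteoglycan aggrecan, which link protein holds on hyaluronan, and matrilins and COMP join these parts together. Osteoblasts form bone under the control of RUNX2 and then of SP7, use the phosphatase encoded by *Alpl* to let mineral form, and secrete bone sialoprotein, the product of *Ibsp*. The UGS itself holds no skeleton, but the pubic cartilage lies next to it, and several of these genes are also used by fibroblasts, smooth muscle and vessels. In bulk tissue, fewer cells of a type and less RNA per cell cannot be told apart.

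Promoters of 4 members are shown: *Acan*, *Ibsp* and *Runx2*, whose highest and lowest values lay farthest apart among members above the floor of counting, and *Hapln1*, the one cartilage member above 1 FPKM. Each is 300 bases of GRCm38.p6 from RefSeq, 250 before the gene start and 50 after it, on the strand of the gene. The windows are chr7:79052976-79053275 on the plus strand for *Acan*, chr13:89540386-89540685 on the plus strand for *Hapln1*, chr5:104299037-104299336 on the plus strand for *Ibsp* and chr17:44814578-44814877 on the minus strand for *Runx2*. Capitals mark matches to the RUNX-type letters ACCACA or their other strand TGTGGT, and in *Ibsp* the TATA-type letters TATAAA read on the other strand as TTTATA.
Acan: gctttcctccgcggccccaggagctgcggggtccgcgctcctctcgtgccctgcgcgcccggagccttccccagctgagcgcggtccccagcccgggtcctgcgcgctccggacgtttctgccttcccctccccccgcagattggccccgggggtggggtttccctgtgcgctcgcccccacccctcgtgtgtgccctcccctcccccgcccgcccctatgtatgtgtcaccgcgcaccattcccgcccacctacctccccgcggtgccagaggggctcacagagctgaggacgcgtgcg
Hapln1: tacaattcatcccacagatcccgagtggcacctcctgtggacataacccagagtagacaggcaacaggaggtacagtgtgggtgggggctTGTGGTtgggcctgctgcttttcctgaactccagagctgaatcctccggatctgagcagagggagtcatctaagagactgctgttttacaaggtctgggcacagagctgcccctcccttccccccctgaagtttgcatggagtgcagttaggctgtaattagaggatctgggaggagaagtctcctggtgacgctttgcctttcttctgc
Ibsp: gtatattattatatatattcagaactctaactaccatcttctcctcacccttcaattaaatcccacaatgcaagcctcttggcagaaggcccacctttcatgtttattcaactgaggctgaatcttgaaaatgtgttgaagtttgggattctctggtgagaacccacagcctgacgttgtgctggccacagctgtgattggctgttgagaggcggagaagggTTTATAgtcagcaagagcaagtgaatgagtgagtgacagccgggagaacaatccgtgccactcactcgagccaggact
Runx2: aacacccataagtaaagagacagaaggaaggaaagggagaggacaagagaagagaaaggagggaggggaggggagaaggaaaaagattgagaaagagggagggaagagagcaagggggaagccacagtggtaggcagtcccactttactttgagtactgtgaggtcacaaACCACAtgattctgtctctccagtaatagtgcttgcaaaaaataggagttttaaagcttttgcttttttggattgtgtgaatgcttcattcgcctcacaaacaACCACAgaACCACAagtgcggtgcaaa
The *Runx2* window holds 3 RUNX-type matches, which begin at -80, 23 and 31, counted from the first base of the gene as 0, and do not overlap. Over 32851 RefSeq promoter windows of this length, 16.8% hold at least 1 such match and 0.183% hold at least 3. The *Hapln1* window has 1, beginning at -160, *Matn1* has 1 beginning at -134, and the letters are absent from the windows of *Acan*, *Matn3*, *Ibsp* and *Alpl*. TATA-type letters stand in 13.6% of all windows, and the SOX-type letters ACAAAG, or CTTTGT on the other strand, in 18.7%, with none in the 4 windows shown. In GC content the windows run from 45.3% in *Runx2* to 74.0% in *Acan*. Promoters were matched for 7 of the 9 members, the exceptions being *Comp* and *Sp7*. A match of letters is not a binding site.

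The values are FPKM, the reads of a gene scaled to its length and to the mapped reads of the library, and reads behind a value were estimated from the values of single reads. The libraries held about 64000000, 55700000, 29000000 and 52400000 mapped reads, in the order of the groups above. *Tbx18* had 3.47 and 2.50 FPKM in wild type and mutant at E16.5 and 3.16 and 2.93 at E18.5. The table does not tell transcript of the knock-in allele from intact transcript, so this gene does not check the genotype. All 11 markers of the UGS that were checked exceeded 1 FPKM. The E18.5 wild type library stood apart. Over genes of at least 20 FPKM in both libraries, the log2 ratio of mutant to wild type had an SD across genes of 0.611 at E18.5 and 0.177 at E16.5, and its rank correlation with transcript GC content was 0.44 over 13012 genes at E18.5 and 0.02 over 13478 at E16.5. E18.5 results are therefore also given without this library, as E18.5 mutant over E16.5 wild type, which mixes stage and genotype. Gene positions below come from the deposited table, counted from 1, whose genome build is not given in the sources used here and differs from GRCm38.

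The 9 genes covered a wide range of levels, and 4 of the 5 cartilage members were near 0. By mean FPKM the order was *Alpl* at 13.5, *Hapln1* at 4.402, *Runx2* at 1.33, *Ibsp* at 0.766, *Sp7* at 0.692, *Acan* at 0.258, *Comp* at 0.119, *Matn3* at 0.0946 and *Matn1* at 0.00704. The ranges of *Alpl*, *Hapln1* and *Runx2* did not overlap each other across the libraries. *Runx2* overlapped *Ibsp*, *Ibsp* overlapped *Sp7*, and *Comp* overlapped *Matn3* and *Acan*, so these neighbours are not ordered beyond their spread. Of the 5 cartilage members, 1 reached 1 FPKM in any library, *Hapln1*, while 3 of the 4 bone members did, *Alpl*, *Runx2* and *Ibsp*. *Acan* and *Matn1*, which are largely restricted to cartilage, were at most 0.430 and 0.0175 FPKM, and *Col2a1*, the main cartilage collagen, was at most 2.04 FPKM. Some other cartilage collagens were not low, with *Col9a2* at 13.6 to 38.4 FPKM and *Col11a1* at 9.03 to 10.04. Of 15 other cartilage matrix genes with a row, 10 reached 1 FPKM in some library. The low levels of *Acan*, *Comp* and the matrilins among the members thus do not hold for all cartilage genes.

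**Figure D1:**
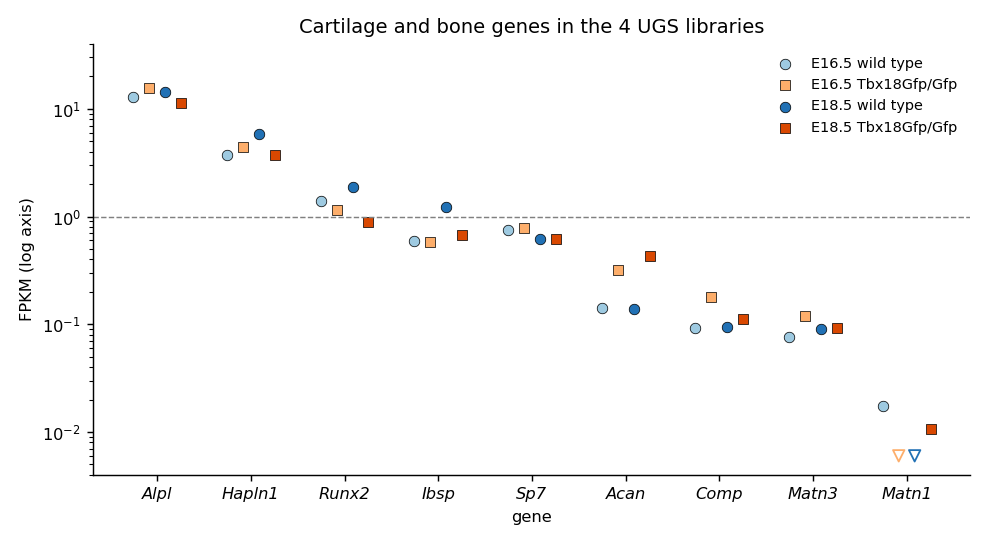
FPKM of the 9 genes (horizontal axis) in the 4 libraries on a log vertical axis, with circles for wild type and squares for *Tbx18Gfp/Gfp*, pale for E16.5 and dark for E18.5. Open triangles at the bottom mark values listed at 0, the dashed line is 1 FPKM, and the mutant squares of *Acan* lie above both wild type circles while those of *Runx2* lie below them.

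*Acan* encodes aggrecan, the large proteoglycan that lets cartilage hold water (ENSMUSG00000030607.7, chr7:86198369-86259985). It had 0.140 FPKM in E16.5 wild type, 0.322 in E16.5 mutant, 0.140 in E18.5 wild type and 0.430 in E18.5 mutant UGS. These stand for about 64, 128, 29 and 161 reads. Both mutant libraries were higher than both wild type libraries, which had nearly the same level. The mutant level was 2.30-fold that of wild type at E16.5, with an exact 95% counting interval of 1.69 to 3.15, and 3.08-fold at E18.5, with an interval of 2.06 to 4.74. Such intervals cover counting error only. Without the E18.5 wild type library, E18.5 mutant over E16.5 wild type was 3.07-fold, from 2.28 to 4.17. Relative to the median ratio of all genes, the log2 ratio was 1.19 for the E16.5 pair and 1.33 for the E18.5 pair. *Acan* stayed under 1 FPKM throughout and so did not enter the counts given for the other members.

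The matrilins and COMP are adaptor proteins of the cartilage matrix. *Comp* (ENSMUSG00000031849.9, chr8:72897447-72905965) had 0.0919, 0.178, 0.0934 and 0.112 FPKM in the order of the groups, from about 13, 22, 6 and 13 reads. *Matn3* (ENSMUSG00000020583.4, chr12:8954735-8978299) had 0.0759, 0.119, 0.0912 and 0.0926 FPKM, from about 11, 15, 6 and 11 reads. In both genes the mutant libraries were the higher ones, but every counting interval of their genotype ratios included 1, with log2 ratios of 0.96 and 0.26 for *Comp* and 0.65 and 0.02 for *Matn3* at E16.5 and E18.5. E18.5 mutant over E16.5 wild type gave 0.29 for each. No difference was detectable at this depth. *Matn1* (ENSMUSG00000040533.7, chr4:130500300-130511391) had about 2 reads in E16.5 wild type, 1 in E18.5 mutant and was listed at 0 in the other libraries. All 4 values lie below the 3 reads that a count of 0 allows, 0.0262 to 0.0578 FPKM, and no fold is given. Over rows whose highest value lay between 0.1 and 1 FPKM, 19.9% had both mutants above both wild types, as *Acan*, *Comp* and *Matn3* did.

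*Hapln1* encodes the link protein that ties aggrecan to hyaluronan, and was the one cartilage member with a substantial level (ENSMUSG00000021613.9, chr13:89680241-89751437). It had 3.69, 4.38, 5.84 and 3.70 FPKM in E16.5 wild type, E16.5 mutant, E18.5 wild type and E18.5 mutant UGS, from 933 to 1343 reads. The E18.5 wild type library was highest, and the other 3 lay close together. The genotype log2 ratio was 0.25 at E16.5, from 0.14 to 0.36, and -0.66 at E18.5, from -0.79 to -0.53. Against E16.5 wild type, the E18.5 mutant gave 0.00, from -0.12 to 0.12, so the lower E18.5 value rests on the E18.5 wild type library. The *Hapln1* transcript has 39.8% GC, at the 4.36 percentile of transcripts, and of 10 equal GC bins the lowest had a median log2 ratio of -0.06 at E18.5 and the highest 0.82. With a fitted trend on transcript length and GC removed, the *Hapln1* ratio was -0.53, and with the FPKM sums of the libraries made equal it was -1.08. *Hapln1* and *Acan*, whose proteins bind each other, thus had opposite signs at E18.5.

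*Runx2* encodes the transcription factor that commits cells to the osteoblast fate (ENSMUSG00000039153.16, chr17:44740950-44951746). It had 1.40 FPKM in E16.5 wild type, 1.16 in E16.5 mutant, 1.87 in E18.5 wild type and 0.892 in E18.5 mutant UGS, from about 558, 403, 339 and 292 reads. Both mutant libraries lay below both wild type libraries, an order shared by 11% of the 15023 genes that reached 1 FPKM in some library. The reverse order was seen in 20.3%. The log2 ratio was -0.27 at E16.5, from -0.46 to -0.08, and -1.07 at E18.5, from -1.30 to -0.84, a level 2.095-fold lower in the mutant. Without the E18.5 wild type library it was -0.65, from -0.86 to -0.44, which keeps the direction and is 1.56-fold lower. *Runx2* shares 37627 bases with *Supt3h*, a gene for a transcription cofactor subunit. *Supt3h* had 6.83, 7.74, 5.94 and 5.80 FPKM in the same order, and log2 ratios of 0.18 and -0.03 at E16.5 and E18.5. The library kit marked strand, but whether the counting used it is not stated, so how shared reads were divided was not tested.

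*Sp7* encodes osterix, the zinc finger factor that acts after RUNX2 in osteoblasts (ENSMUSG00000060284.7, chr15:102187608-102196702). It had 0.755, 0.780, 0.615 and 0.617 FPKM, from about 139, 125, 52 and 93 reads. The libraries of one stage were nearly equal, with genotype log2 ratios of 0.05, from -0.31 to 0.41, and 0.00, from -0.50 to 0.52. E18.5 mutant over E16.5 wild type gave -0.29, from -0.69 to 0.10. In the values as deposited, *Sp7* thus had no detectable genotype difference at either stage, although *Runx2* was lower in the mutant. The E18.5 ratio of *Sp7* depended on the scaling. With equal FPKM sums it was -0.42, where *Runx2* gave -1.49. With the trend on transcript length and GC removed it was -0.52, just outside its interval, where *Runx2* gave -1.18. From E16.5 to E18.5 the log2 ratio of *Sp7* was -0.30 in wild type and -0.34 in mutant, and both counting intervals include 0.

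The products of bone-forming cells gave low and moderate levels. *Ibsp* (ENSMUSG00000029306.8, chr5:104728306-104740491) had 0.593, 0.577, 1.23 and 0.668 FPKM, from 60 to 70 reads in each library. The E18.5 wild type value was alone above the others, and *Ibsp* passed 1 FPKM only through it. Its E18.5 log2 ratio was -0.88, from -1.39 to -0.36, but 0.17, from -0.34 to 0.68, against E16.5 wild type. *Alpl* (ENSMUSG00000028766.10, chr4:137297647-137352292) encodes tissue-nonspecific alkaline phosphatase, which is also made outside bone. It had 12.9, 15.5, 14.3 and 11.3 FPKM, the highest level of the members and the second smallest spread after *Sp7*, a highest over lowest ratio of 1.37. Its log2 ratio was 0.26 at E16.5, from 0.17 to 0.35, and -0.34 at E18.5, from -0.46 to -0.22. Against E16.5 wild type the E18.5 mutant gave -0.19, from -0.29 to -0.09. The E18.5 ratio of *Alpl* depended on the scaling: it was -0.76 with equal FPKM sums and -0.99 with the trend on transcript length and GC removed.

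**Figure D2:**
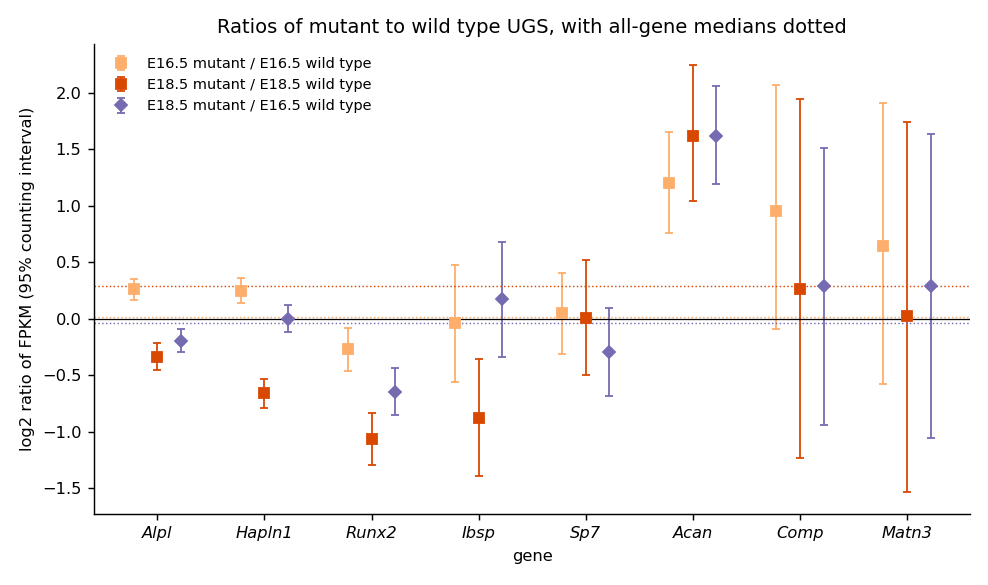
Log2 ratio of FPKM (vertical axis) for 8 genes (horizontal axis), with exact 95% counting intervals as bars, for mutant over wild type at E16.5 (pale squares) and E18.5 (dark squares) and for E18.5 mutant over E16.5 wild type (diamonds). Dotted lines are the medians of all genes, *Matn1* has no ratio, and all 3 ratios lie above 0 for *Acan* and below 0 for *Runx2*, with intervals that leave out 0.

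Counted together, the members gave no common shift with genotype at E16.5. Of the 3 that reached 1 FPKM in an E16.5 library, 0 were past 2-fold, where 1.65% of 14761 genes were. *Hapln1* and *Alpl* were higher and *Runx2* lower, and their median log2 ratio was 0.25 beside 0.01 over all genes. At E18.5, 4 members passed the filter, and 1, *Runx2*, was at least 2-fold lower in the mutant, where 2.89% of 14733 genes were. All 4 of these were lower to some degree, as 30.5% of genes were, and their median was -0.77 beside 0.29 over all genes. *Ibsp* and *Runx2* passed that filter only through the wild type library, so neither the count nor the median supports a direction for the 9 genes. Of the other 5, *Acan* was higher at E18.5, and *Sp7*, *Comp* and *Matn3* had counting intervals that include 0. With E16.5 wild type as reference, 0 of 3 members were past 2-fold, where 2.51% of 14766 genes were. Their median was -0.19 beside -0.04 over all genes. *Runx2* entered there only through the wild type library, so this median does not support a direction.

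The comparison of stages used the same 4 libraries, so it shares them with the comparisons of genotypes. In wild type, *Ibsp* was 2.07-fold higher at E18.5 than at E16.5, with an interval of 1.45 to 2.94, and it was the 1 of 4 members past 2-fold, where 2.7% of 14807 genes were at least 2-fold higher. *Hapln1*, *Runx2* and *Alpl* were also higher, by 0.66, 0.42 and 0.14 on the log2 scale, as 27.7% of genes were, whereas the median of all genes was -0.33. In the mutant, 0 of 3 members were past 2-fold, where 1.92% of 14713 genes were. *Alpl*, *Runx2* and *Hapln1* were lower at E18.5 there, with log2 ratios of -0.45, -0.38 and -0.25 beside an all-gene median of -0.06, and 64.7% of genes were lower. *Ibsp* entered the wild type count only through its E18.5 value, so that count and the 4 higher values do not support a direction. In the mutant, *Runx2* entered only through its E16.5 value, so the 3 lower values do not support a direction either. *Acan* was level between the stages in wild type and 1.34-fold higher at E18.5 in the mutant, with an interval of 1.05 to 1.70.

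**Figure D3:**
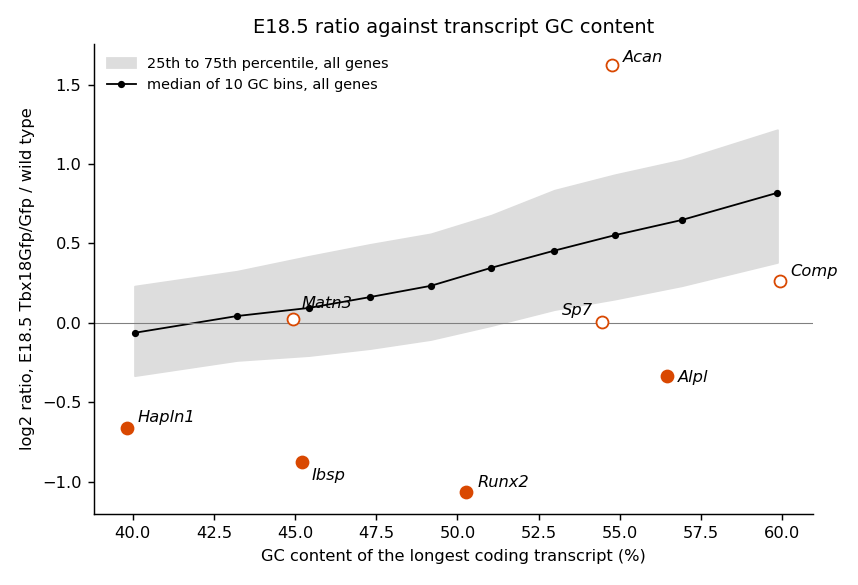
Log2 ratio of mutant over wild type at E18.5 (vertical axis) against transcript GC content in percent (horizontal axis), with the median (line) and the 25th to 75th percentile (grey) of all genes in 10 GC bins. Filled circles are the 4 members that reached 1 FPKM in an E18.5 library, *Ibsp* and *Runx2* only through the wild type one. Open circles are the others except *Matn1*. The 4 filled circles and the open circles of *Sp7* and *Comp* lie below the grey band of their GC content, and *Acan* lies above it.

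Other genes of the same tissues, given by list, did not move as 1 group. The 8 cartilage collagens were all at 1 FPKM or more in some library. At E18.5, 7 passed the filter in the compared pair, all 7 were higher in the mutant and 4 exceeded 2-fold. *Col10a1* and *Col2a1*, both among the 4, passed only through the mutant library, where they were high, so the count is not support for a direction. Over all genes, 69.5% were higher and 15.1% at least 2-fold higher. The collagen median log2 ratio was 1.13 beside 0.29 over all genes. The highest was *Col10a1*, the collagen of hypertrophic cartilage, at 2.54, and the lowest *Col11a1* at 0.15. Against E16.5 wild type, the collagen median was -0.06, so that difference rests on the E18.5 wild type library, where *Col2a1* was at 0.876 FPKM against 1.95 to 2.04 in the others. *Col10a1* was the exception. It had 0.681, 1.46, 0.413 and 2.40 FPKM in the order of the groups and a log2 ratio of 1.82 against E16.5 wild type. It was also the highest of the list at E16.5, at 1.099, where *Col11a2* was lowest at -0.20. *Col11a2* passed there only through the wild type library. In these pairs too, *Col10a1* passed the filter only through the mutant library, so these ratios are not support for a direction. Both its mutant libraries were above both wild types, as in 20.3% of genes that reached 1 FPKM in some library. *Acan* had that order too, as did 19.9% of rows with a highest value from 0.1 to 1 FPKM.

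Of the 17 other cartilage matrix genes listed, 10 passed the filter. Their median was 0.12 at E16.5, from *Cilp*, a matrix protein of cartilage, at -1.12 to *Lect1*, the chondromodulin gene, at 0.84. At E18.5 it was -0.15, from the proteoglycan gene *Dcn* at -0.42 to the matrilin gene *Matn4* at 1.61. The median was 0.09 and *Matn4* stood at 0.07 against E16.5 wild type. Among 14 chondrocyte regulators the median was -0.11 over 10 genes at E16.5, from the homeobox gene *Barx2* at -0.94 to *Hoxa2* at 0.23. It was -0.14 over 11 genes at E18.5, from *Sox9* at -1.02 to *Zfp219* at 1.40, and against E16.5 wild type the median was -0.22, with *Sox9* at -0.45 and *Zfp219* at -0.22. *Sox9*, the regulator that switches on *Col2a1* and *Acan* in chondrocytes and is also used by UGS epithelium, had 11.3, 11.8, 16.7 and 8.26 FPKM in the order of the groups. It was therefore lowest in the library in which *Acan* was highest.

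The bone lists held genes of both signs at E16.5, and at E18.5 the osteoblast matrix genes that passed the filter lay mostly above 0. Of 18 osteoblast matrix genes, 10 passed at each stage, with a median of -0.02 at E16.5, from *Tnn*, the tenascin W gene, at -1.75 to *Ifitm5* at 0.82. *Tnn* passed there only through the wild type library, so its ratio is not support for a direction. At E18.5 the list median was 0.40 beside 0.29 over all genes, from *Omd* at -0.49 to the osteocalcin gene *Bglap2* at 0.94. Of the 10 genes, 9 were higher, where 69.5% of all genes were. *Bglap2* had 0.365, 0.315, 0.871 and 1.67 FPKM, from about 6, 4.5, 6.5 and 22.5 reads, too few to tell the wild type stages apart, and it passed the filter only through the E18.5 mutant library. Near-identical osteocalcin genes make its reads uncertain. The list median was again 0.40 against E16.5 wild type. Below 1 FPKM in both E18.5 libraries, *Spp1*, *Phex* and *Dmp1* were lower in the mutant and *Phospho1*, *Tnn* and *Mepe* higher. *Dmp1*, *Phospho1* and *Mepe* had few or no reads in E18.5 wild type. Among 13 osteoblast regulators the median was 0.13 over 10 genes at E16.5, from *Twist1* at -0.81 to *Dlx6* at 0.58. At E18.5 it was 0.01 over 9 genes, from *Dlx5* at -1.85 to *Msx1* at 1.17. *Dlx6* at E16.5 and *Msx1* at E18.5 passed only through the mutant library, so these ratios are not support for a direction. Against E16.5 wild type the median was -0.22, with *Dlx5* at -0.98 and *Msx1* at -0.14. *Dlx5*, a homeobox activator of osteoblast genes, had 2.62, 2.85, 4.78 and 1.32 FPKM, and like *Runx2* it was highest in E18.5 wild type and lowest in E18.5 mutant UGS. The RUNX partner gene *Cbfb* had 42.8, 47.1, 32.01 and 39.6 FPKM, and the relative *Runx1* had 2.77, 2.101, 3.14 and 2.16, with both mutants below both wild types. *Cbfb* and *Runx1* were picked with their values known.

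Of 11 listed genes of osteoclasts, the cells that resorb bone, 4 were at 1 FPKM or more. Which cells made them was not tested. Their median was -0.01 at E16.5, from *Tnfrsf11a* at -0.25 to *Ctsk* at 0.38. At E18.5 it was 0.88 beside 0.29 over all genes. All 4 were higher there, as 69.5% of genes were, from *Tnfrsf11a*, the RANK receptor gene, at 0.35 to the protease gene *Ctsk* at 1.09. Against E16.5 wild type the median was 0.48. Below 1 FPKM, *Atp6v0d2*, *Oscar* and *Calcr* were lower at E18.5 and *Mmp9* and *Tnfsf11* higher, all but *Mmp9* from few reads. The 6 tendon and joint genes had a median of -0.26 at E16.5, from *Tnmd* at -1.44 to *Fbln7* at 0.14, and of 0.27 at E18.5, from *Kera* at -1.18 to *Scx* at 1.75. It was -0.40 against E16.5 wild type, with *Scx* at -0.36 and *Kera* at 0.30. *Tnmd* passed the filter at E16.5 only through the wild type library, so its ratio is not support for a direction.

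**Figure D4:**
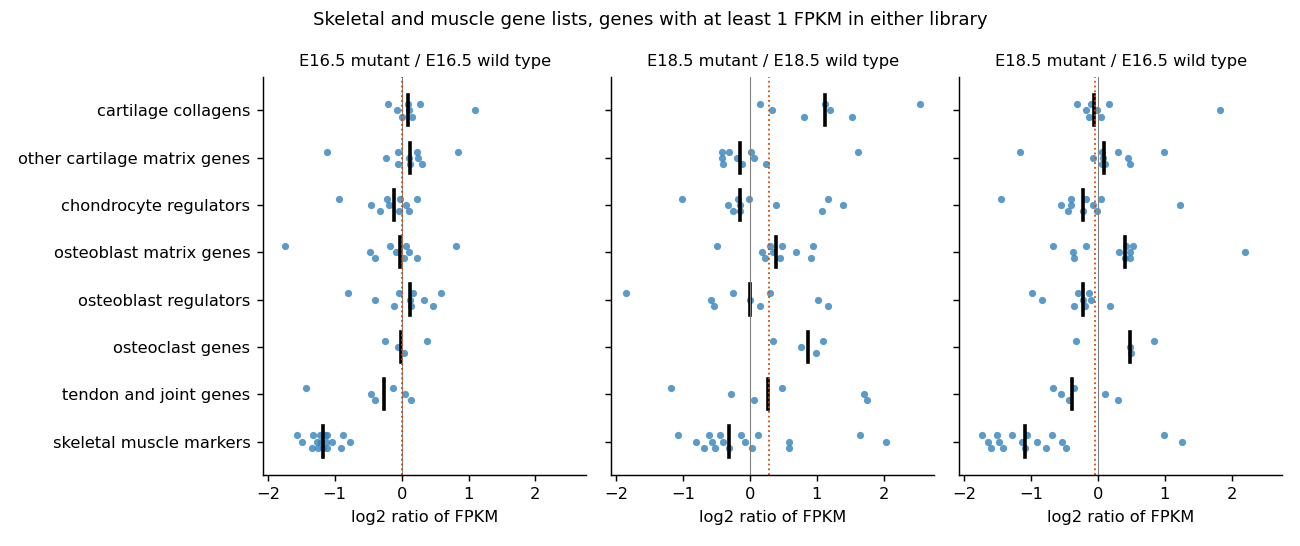
Log2 ratio of FPKM (horizontal axis) of each gene with at least 1 FPKM in either library (points), by gene list (vertical axis), for 3 pairs of libraries, with list medians as black bars and the all-gene median dotted. The cartilage collagens lie right of 0 in the middle panel but around 0 in the right one, and the skeletal muscle markers lie left of 0 in the left panel.

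Markers used for skeletal muscle and for fat also differed between the libraries. Summed FPKM of 17 skeletal muscle markers was 1253 in E16.5 wild type, 558 in E16.5 mutant, 727 in E18.5 wild type and 1026 in E18.5 mutant UGS. At E16.5, 14 of the 17 were at least 2-fold lower in the mutant, where 1.17% of all genes were, with a median log2 ratio of -1.18, from *Ckm* at -1.56 to *Tnnt1* at -0.78. At E18.5 the median was -0.31, with 11 of 17 lower, from *Ttn* at -1.08 to *Acta1* at 2.04, and against E16.5 wild type it was -1.09. *Acta1*, at 110 FPKM in wild type and 455 in mutant UGS at E18.5, carried the higher mutant sum. The cartilage members summed to 4.02, 5.001, 6.16 and 4.34 FPKM and the bone members to 15.7, 17.98, 17.98 and 13.5. Neither sum had the order of the muscle sum. Each was mostly a single gene, *Hapln1* at 3.69 and *Alpl* at 12.9 FPKM in E16.5 wild type. These sums therefore do not measure skeletal tissue as a whole. Of 8 adipocyte markers 2 reached 1 FPKM, and the defining fat genes *Adipoq* and *Plin1* were at most 0.0154 and 0.0232 FPKM. The 2 were *Fabp4*, at 32.3, 20.3, 94.7 and 98.4 FPKM, and *Pparg*, at 3.71, 3.24, 7.64 and 6.10, which are also made by vessels and urothelium, and both were higher at E18.5 in each genotype. Whether the skeletal muscle RNA came from the UGS itself or from neighbouring tissue was not tested. How far dissected neighbouring tissue enters the members' values was not tested either.

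The members' own profiles over the 4 libraries differed, and few genes resembled *Acan*. Likeness was measured as the Euclidean distance between profiles of log2(FPKM + 0.1), each centred on its mean over the 4 libraries. The closest pair of members was *Matn3* and *Comp*, at 0.24, and the farthest *Acan* and *Runx2*, at 1.69. *Hapln1* lay 0.42 from *Ibsp* and 0.46 from *Runx2*, which share the high E18.5 wild type value. Among 14971 ranked genes, the 10 nearest to the mean of *Acan*, *Hapln1*, *Matn1* and *Matn3* were *Spata9*, *Cyp2d22*, *Cntn4*, *Tmem173*, *Dpyd*, *Rora*, 1500011K16Rik, *Id4*, *Adamts3* and LOC100503357, the nearest at 0.03. The 10 nearest to the mean of *Sp7* and *Ibsp* were *C3ar1*, *Papola*, *Nrd1*, *Zfp759*, *Patl1*, *Mcart6*, *Sass6*, *Trip11*, *Ppapdc2* and *Ddx46*, the nearest at 0.01. As 6886 and 5162 genes lay within 0.5 of these means, neither profile was distinctive. For *Acan* alone, a choice made after seeing the data, 65 genes lay within 0.5, against 1329 for *Runx2* and 3021 for *Hapln1*. The nearest to *Acan* were *Cma1* at 0.09, *Itgbl1* at 0.13 and *Tpsb2* at 0.20. *Cma1* and *Tpsb2* encode a chymase and a tryptase of mast cells. *Cma1* had 4.19, 7.33, 4.47 and 9.49 FPKM in the order of the groups, higher in both mutant libraries as *Acan* was.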

How the data were processed

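Per the submitters' processing notes, CASAVA 1.8.2, Trimmomatic 0.30, TopHat2 2.1.0 and Cufflinks 2.2.1 were used; the genome build is not given in the sources used here. The authors deposited FPKM from Cufflinks, 1 column per library, with no further scaling stated. The FPKM were used as deposited. Depth was estimated from 15 to 27 olfactory receptor genes per library with a single read, and reads per gene from depth and transcript length (GENCODE M21, by symbol). For *Matn3* a length of 2493 bases replaced the annotated 3014, as the nearest at which all 4 values were whole reads within 0.1. Ratios have no pseudocount, counts of genes use at least 1 FPKM in either library and 2-fold, and intervals are exact (Clopper-Pearson, 95%) for counting error only. A lowess trend (span 0.3) on length and GC content was subtracted as an alternative. The depth estimate, the ratios with the trend subtracted and the counting interval were tested on simulated data. Other steps were not.

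The genes named are all members, the highest and lowest ratio of each list at either stage, and the 10 nearest profiles (pseudocount 0.1). *Col2a1*, the *Bglap2*, *Dlx5*, *Sox9* and *Col10a1* levels, *Col9a2*, *Col11a1*, *Adipoq*, *Plin1*, *Fabp4* and *Pparg* were picked for their roles after values were seen. The osteoblast matrix and osteoclast genes below 1 FPKM were also named after values were seen. The members and lists were chosen with earlier results of these data known. Listed genes without a row were *Snorc*, *Bglap*, *Bglap3*, *Ocstamp* and *Dcstamp*, and *Cnmd* is present as *Lect1*. Computation used Python 3.11.15 with scipy 1.17.1, pandas 2.3.3, numpy 2.4.6, matplotlib 3.10.9 and statsmodels 0.14.6.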

Additional observations from a re-analysis of the deposited data

Results flagged for a closer look

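Of the members, 3 had ratios of opposite sign in the pairs compared, with counting intervals that leave out 0 on both sides. *Hapln1* was higher in the mutant at E16.5, with a log2 ratio of 0.25, and lower at E18.5, at -0.66. *Alpl* did likewise, at 0.26 and -0.34. Between the stages, *Hapln1* had a log2 ratio of E18.5 over E16.5 of 0.66 in wild type and -0.25 in mutant, *Alpl* of 0.14 and -0.45, and *Runx2* of 0.42 and -0.38. These differences were not tested, since each group is 1 library, and each pair of opposite signs includes the E18.5 wild type library.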

How the results depend on the processing

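Of 208 values of single members under other settings, 169 stayed within the counting interval of the reported value, 35 lay outside it, and 4 changed sign where that interval left out 0. The 4 came with the alternatives added after seeing the data. With E16.5 wild type in place of E18.5 wild type, the E18.5 mutant gave a log2 ratio of 0.00057 for *Hapln1* and 0.17 for *Ibsp*. With E18.5 mutant in place of E18.5 wild type, the stage ratio was -0.19 for *Alpl* and -0.65 for *Runx2*.

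The median of the members at E18.5, -0.77, was -1.19 with the FPKM sums made equal, -1.06 centred on the median gene, -1.03 with upper quartile scaling, -1.05 with the trend subtracted, -0.48 with a pseudocount of 1, -0.17 with no filter, -0.50 with at least 5 FPKM in either or 1 FPKM in both libraries, and -0.19 with E16.5 wild type as reference. The count past 2-fold, 1, was 3 with equal sums, 2 centred, with upper quartile scaling, with the trend subtracted or with no filter, and 0 with a pseudocount of 0.1 or 1, at least 5 FPKM in either, 1 FPKM in both, or E16.5 wild type as reference. The wild type stage median, 0.54, was 0.83 with equal sums, 0.87 centred, 0.84 with upper quartile scaling, 0.75 with the trend subtracted, 0.37 with a pseudocount of 1, 0.20 with no filter and -0.19 with E18.5 mutant in place of E18.5 wild type. Its count, 1, was 0 with a pseudocount of 0.1 or 1, with either stricter filter and with that library replaced. At E16.5 the count of 0 became 1 with no filter, *Acan*. The mutant stage median, -0.38, was -0.20 with a pseudocount of 1. Where a filter moved a value, the members that entered changed. For the scalings the cause was not tested.

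No paired analysis was possible because each comparison is 1 library against 1 and the labels carry no replicate numbers. For the same reason no replicate was left out. A fit of stage plus genotype over the 4 libraries was not run. Depth limits *Comp*, *Matn3* and *Matn1*, with 22 reads or fewer in each library, and *Bglap2*, with at most 22.5.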
